A study of Mus musculus with 2 samples.

Results

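The 8 genes described here, H2-Aa, H2-Ab1, H2-Eb1, Cd74, H2-DMa, H2-DMb1, H2-DMb2 and Ciita, encode the class II antigen presentation machinery, and they were taken by symbol from the 31053 genes counted in both libraries. Single cells of the aortic arch were measured by droplet RNA sequencing in 1 library per diet. Both groups were male C57BL/6 mice that lack Apoe (Apoe-/-) and were 16 weeks old. The control group (ND) was on chow and the other group (HFD) received high-fat, high-cholesterol food with sodium cholate for 12 weeks, and 2 aortas were pooled in each library. All values are UMI counts, in which a captured transcript is counted once whatever its length, and sums are given as CPM, the UMIs of a gene scaled to a fixed total of UMIs (counts per 1e6) of the same cells. Because there is 1 library per diet, no difference was tested, and parentheses hold exact 95% intervals that cover counting error only.

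MHC class II molecules are pairs of an alpha and a beta chain that show peptides from outside the cell to CD4+ T cells. H2-Aa and H2-Ab1 encode the 2 chains of I-A, and H2-Eb1 the beta chain of I-E, whose alpha chain gene H2-Ea is not functional in C57BL/6 mice. Cd74, the invariant chain, escorts the new pair and blocks its groove. The DM molecule, made of the H2-DMa chain and of a beta chain from H2-DMb1 or H2-DMb2, removes the remnant of Cd74 and edits the bound peptide. Ciita is the coactivator that switches the whole group on. It is constantly made in dendritic cells and B cells and is induced by interferon gamma in macrophages and in many cells that are not of the immune system, among them endothelial cells.

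The 6 genes with the prefix H2 lie together on chromosome 17 of GRCm38 in GENCODE M21. H2-DMa (ENSMUSG00000037649) spans 34119541 to 34139101, H2-DMb2 (ENSMUSG00000037548) 34143307 to 34151555, H2-DMb1 (ENSMUSG00000079547) 34153072 to 34160230, H2-Ab1 (ENSMUSG00000073421) 34257689 to 34269419 and H2-Eb1 (ENSMUSG00000060586) 34305867 to 34316674, all on the plus strand. H2-Aa (ENSMUSG00000036594) spans 34282744 to 34287823 on the minus strand. Ciita (ENSMUSG00000022504) is on chromosome 16, 10480059 to 10528418, plus strand, and Cd74 has the identifier ENSMUSG00000024610. Ciita does not bind DNA itself but sits on factors bound to the X box and the Y box of class II promoters. Promoter windows of RefSeq (build GRCm38.p6) matched 5 of the 8 genes, and 4 of these held the Y box letters TGATTGG. Those of H2-Aa and H2-Eb1 are shown as examples of promoters with these letters. Each line gives the 150 bases before the RefSeq start of transcription, 5′ to 3′ on the strand of the gene, with matches to the Y box and to the X box letters AACNGATG in capitals.
H2-Aa, chr17:34287824-34287973, minus strand: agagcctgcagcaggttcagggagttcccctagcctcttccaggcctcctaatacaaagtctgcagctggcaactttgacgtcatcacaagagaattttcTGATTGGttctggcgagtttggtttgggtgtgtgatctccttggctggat
H2-Eb1, chr17:34305717-34305866, plus strand: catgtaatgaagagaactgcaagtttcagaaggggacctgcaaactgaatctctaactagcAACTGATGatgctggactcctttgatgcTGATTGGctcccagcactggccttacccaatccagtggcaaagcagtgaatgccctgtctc
The Y box letters began 50 bases before the start in H2-Aa, 61 in H2-Eb1, 63 in H2-DMb1 and 92 in H2-DMb2. Between the X box and the Y box stood 20 bases in H2-Eb1 and 21 in both DM beta chain genes, and the motifs did not overlap. Searched on both strands from 250 bases before to 50 after the start, 7.82% of 32851 RefSeq promoters held the Y box letters, 2.32% the X box letters and 0.186% (61 promoters) both. Both H2-DMa windows held neither. The RefSeq starts of H2-DMb1 and H2-DMb2 lie inside the spans that GENCODE gives, so positions there depend on the annotation. These matches describe letters and not binding.

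A barcode counted as a cell if it had 200 or more genes and 200 or more UMIs, of which 30% or fewer were mitochondrial. This left 5416 of 10234 ND barcodes and 2739 of 14225 HFD barcodes, the same numbers as in the sample labels, with 27137322 and 17191279 UMIs and a median of 3732.5 and 5336 per cell. Of the kept barcodes, 1 occurred in both libraries. Apoe was at 46.3 (43.8 to 48.95) against 49.1 (45.8 to 52.5) CPM in ND and HFD, but the sources used here do not say which bases of Apoe were deleted, so these 3′ tags check nothing. A cell was assigned to a class when at least 3 genes of a marker list had a UMI, and barcodes passing lists of more than 1 lineage were called mixed and left out of the classes. Endothelial cells (2347 ND, 1203 HFD) were 43.3% and 43.9% of the cells. Mural cells, the smooth muscle and pericyte class that forms most of an aortic wall, were only 38 and 14 cells, and 51 ND cells and no HFD cell passed the airway epithelial list. Endothelial cells with at least 2 of Vwf, Vcam1 and Cytl1 and of no other subset were called large-vessel, and those with at least 2 of Gpihbp1, Rgcc, Car4 and Lpl capillary. No marker list contained a class II gene.

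In both libraries the 8 genes together were highest in dendritic cells and macrophages, which like B cells are professional antigen-presenting cells. Dendritic cells were at 54029 (53293 to 54773) CPM in ND and 48227 (47580 to 48882) CPM in HFD. Macrophages followed with 34893 (34607 to 35181) CPM in ND and 23934 (23765 to 24105) CPM in HFD. In the ND library the order went on with B cells at 17117 (16943 to 17292) CPM, monocytes at 11685 (11099 to 12295) CPM and then large-vessel endothelial cells at 4943 (4829 to 5059) CPM. The last of these stood above neutrophils at 2835 (2592 to 3094) CPM and T cells at 1011 (943 to 1083) CPM. Fibroblasts at 128 (117 to 140) CPM, mesothelial cells at 109 (62.4 to 177) CPM and airway epithelial cells at 52.6 (39.3 to 68.96) CPM were at the lower end. Mural cells were at 60.3 (30.1 to 108) CPM. The intervals of fibroblasts and mesothelial cells overlapped, as did those of mesothelial, mural and airway epithelial cells with each other. NK cells, of which there were 13 in ND and 2 in HFD, were at 832 (569 to 1174) CPM in ND, overlapping with T cells.

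The HFD order differed below the macrophages, but it rested on small groups. HFD neutrophils at 16122 (15016 to 17288) CPM and monocytes at 14647 (13737 to 15602) CPM, with overlapping intervals, were 11 and 15 cells. HFD B cells at 4947 (4526 to 5397) CPM were 13 cells. HFD mural cells at 1277 (1023 to 1575) CPM were 14 cells, of which 1 held 77 of the 87 UMIs. HFD large-vessel endothelial cells were at 896 (823 to 975) CPM, below HFD T cells at 2258 (2053 to 2479) CPM.

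**Figure D1:**
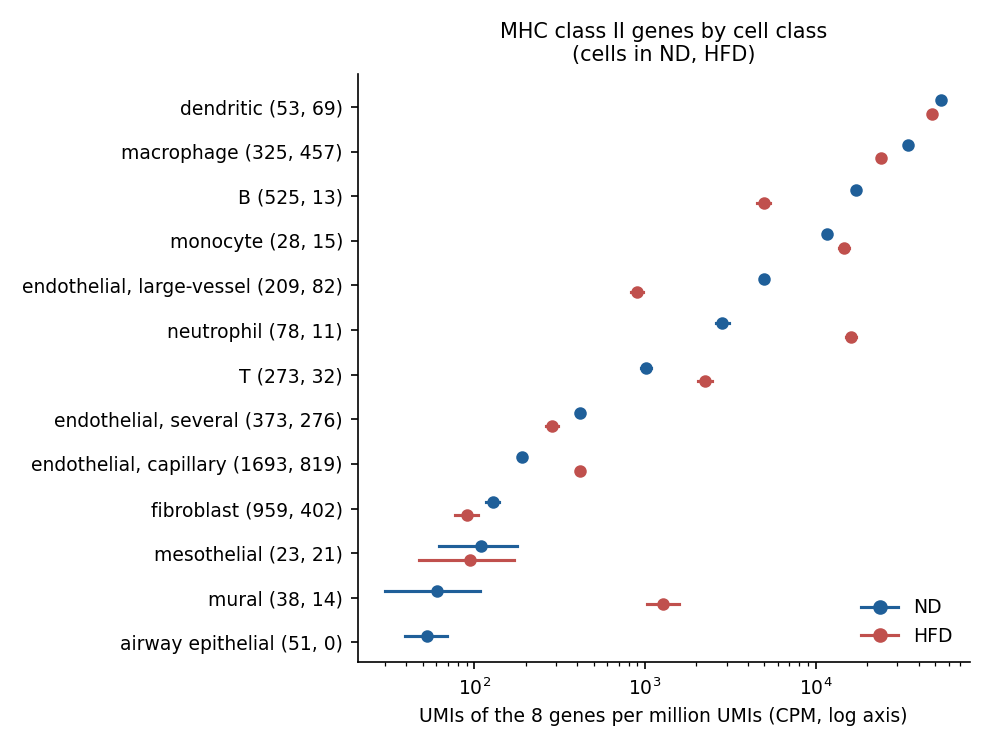
Summed level of the 8 class II genes in each cell class, in CPM on a log axis, for ND (blue) and HFD (red), with exact Poisson 95% intervals and the number of cells in parentheses. ND large-vessel endothelial cells at 4943 CPM sit between monocytes at 11685 CPM and neutrophils at 2835 CPM, while HFD large-vessel cells are at 896 CPM.

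Mouse T cells lack class II, so their UMIs of these genes served as the background. Barcodes that passed the T list and another immune list stayed T cells if the T markers were more. Endothelial cells and fibroblasts that passed an immune list were left out as mixed, so the filter differed from that of T cells. In ND T cells the median was 0 UMIs of the 8 genes per cell, and the tenth of cells with the most held 96.0% of the UMIs. Only 3 of 273 ND T cells and 4 of 32 HFD T cells held 10 or more. A doublet score in the top 6% of the library was found in 0.366% of ND and 12.5% of HFD T cells, so the HFD background is small and less clean. A UMI of any of the 8 genes was counted in 21.6% (16.9% to 27.0%) of ND T cells, at a median of 2573 UMIs per cell, and in 12.1% (8.5004% to 16.6%) after thinning each cell to 1000 UMIs. In the HFD T cells, at a median of 5318.5 UMIs, these shares were 59.4% (40.6% to 76.3%) and 18.75% (7.21% to 36.4%). Macrophages stood far above this background, with 94.7% of ND and 93.0% of HFD cells after thinning. Endothelial cells as a whole did not, since their thinned shares were 16.8% (15.3% to 18.4%) in ND and 11.7% (9.96% to 13.7%) in HFD. They are described by subset.

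Large-vessel endothelial cells of the ND library carried the whole set of class II genes, and those of the HFD library carried much less. In 209 ND and 82 HFD cells, Cd74 had 2611 (2529 to 2696) against 404 (355 to 458) CPM. H2-Aa, the I-A alpha chain, was at 799 (753 to 846) against 142 (113 to 175) CPM. H2-Ab1, its partner, was at 544 (507 to 584) against 148 (119 to 182) CPM. None of these intervals overlapped between the libraries.

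The other members of the group, apart from H2-DMb2 with its few UMIs, had the same direction in these cells. H2-Eb1 was at 712 (669 to 757) against 142 (113 to 175) CPM. H2-DMa was at 146 (127 to 167) against 31.3 (18.9 to 48.9) CPM, and H2-DMb1 at 107 (90.7 to 125) against 28.0 (16.3 to 44.9) CPM, the same direction for the peptide editor as for the molecules that it serves. Ciita, the switch of the group, had 26 UMIs in ND cells, or 17.9 (11.7 to 26.3) CPM, and 1 UMI in HFD cells, or 1.65 (0.0417 to 9.18) CPM. H2-DMb2 had 8 UMIs in ND cells and 0 in HFD cells. The interval of its log2 ratio reached up to 0.49, so its direction was not settled.

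Summed over the 8 genes, the HFD level in large-vessel endothelial cells was 5.51-fold lower than the ND level, with a log2 ratio of -2.46 (-2.59 to -2.34). By gene, the log2 ratio ran from -1.88 for H2-Ab1 to -2.69 for Cd74 among the 6 genes with more than 10 UMIs in each library. Of the 7 members with 20 or more UMIs over the libraries, 7 were lower by at least 1.5-fold and none higher, against 17.6% of 8345 genes lower and 11.2% higher in the same cells. The median log2 ratio was -2.33 for these members and -0.06 for all genes. The difference was counted in 1 library per diet, so a difference between the 2 pools of aortas cannot be told apart from one between diets.

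**Figure D2:**
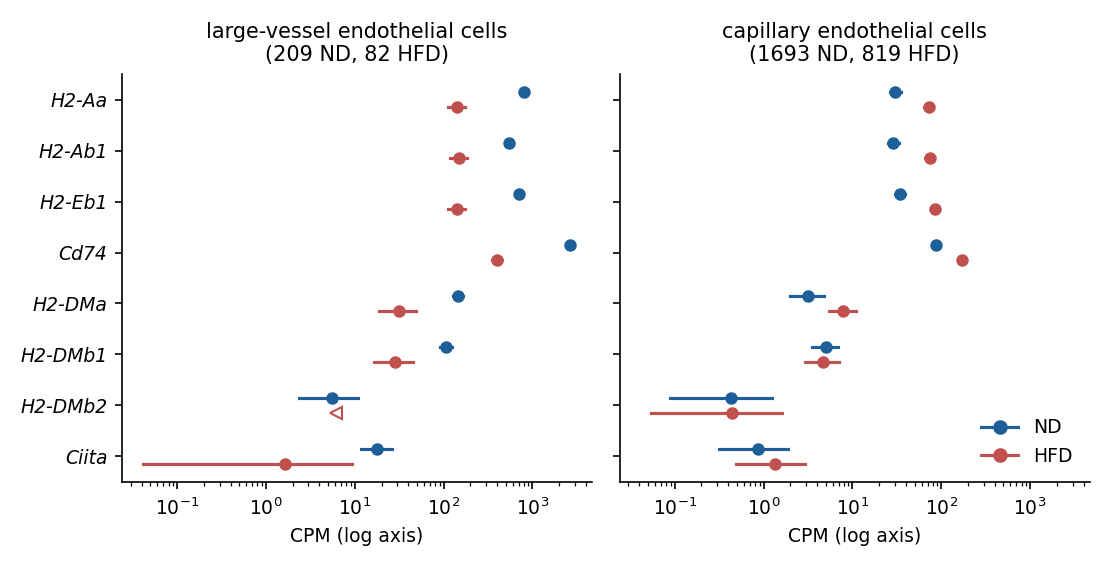
Level of each of the 8 genes in large-vessel (left) and capillary (right) endothelial cells, in CPM on a log axis, for ND (blue) and HFD (red), with exact Poisson 95% intervals. The open triangle marks the upper bound for H2-DMb2, which had no UMI in HFD large-vessel cells. In large-vessel cells the ND points of H2-Aa, H2-Ab1, H2-Eb1, Cd74, H2-DMa, H2-DMb1 and Ciita lie above the HFD intervals.

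The ND signal was spread over most large-vessel cells. The median ND cell held 23 UMIs of the 8 genes, with quartiles of 8 and 48, and the median HFD cell 2, with quartiles of 0 and 8.75, although the HFD cells were deeper, with a median of 6276.5 against 5322 UMIs in all. At least 10 such UMIs were counted in 150 of 209 ND cells (71.8%) and in 19 of 82 HFD cells (23.2%). After thinning to 1000 UMIs, Cd74 was counted in 77.3% (71.0% to 82.8%) of ND and 24.4% (15.6% to 35.1%) of HFD cells, and unthinned in 89.5% and 50%. The ND share stood above that of T cells, of which 5.51% (3.12% to 8.93%) in ND held a Cd74 UMI after thinning. In HFD the T cell share was 12.5% (3.51% to 29.0%), and its interval overlapped that of the HFD large-vessel cells. All of H2-Aa, H2-Ab1, H2-Eb1 and Cd74 were found in 13.04% (8.77% to 18.4%) of thinned ND cells and in 0 of 82 HFD cells, which allows up to 4.40%.

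Within single cells the genes were counted together. Among 187 ND large-vessel cells with a Cd74 UMI, 91.4% (86.5% to 95.03%) also held H2-Aa, 87.2% (81.5% to 91.6%) H2-Eb1 and 51.3% (43.9% to 58.7%) H2-DMa. Among 205 ND capillary cells with a Cd74 UMI, only 17.6% (12.6% to 23.5%) also held H2-Aa and 2.93% (1.08% to 6.26%) H2-DMa. In ND macrophages with Cd74 the same shares were 96.5% and 75.6%. The depth and the number of class II UMIs per cell differ between these groups, and a share of cells depends on both.

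**Figure D3:**
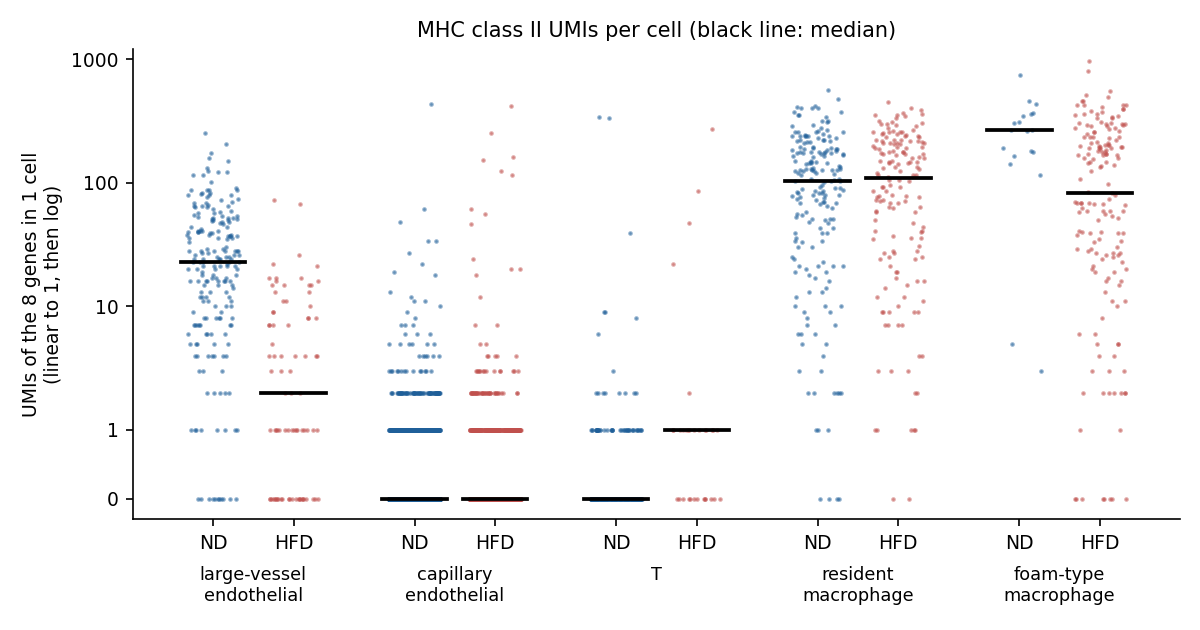
UMIs of the 8 class II genes in each cell (points) with the median (black line), on an axis that is linear to 1 and logarithmic above. The median falls from 23 in ND to 2 in HFD large-vessel endothelial cells, is 0 in capillary cells of both libraries, and is 104 and 108.5 in resident macrophages.

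Markers of immune cells were lower in the same large-vessel cells than in macrophages, but in ND higher than in capillary cells or fibroblasts. Of 12 immune markers (Ptprc, Tyrobp, Fcer1g, C1qa, C1qb, C1qc, Cd79a, Cd79b, Cd209a, Laptm5, Coro1a and Cd52), 11 had a UMI in ND cells and 10 in HFD cells, at a summed 128 (110 to 148) and 186 (153 to 224) CPM. Their sum in ND and HFD was 65.4 (59.5 to 71.6) and 198 (185 to 211) CPM in capillary cells. It was 46.2 (39.7 to 53.6) and 69.5 (58.1 to 82.6) CPM in fibroblasts, and 18101.5 and 17369 CPM in macrophages. In the large-vessel cells Ptprc, the leukocyte common antigen, was at 10.3 against 23.1 CPM. The macrophage gene C1qa was at 5.51 against 9.89 CPM there, and the B cell gene Cd79a at 2.07 CPM against 0. The macrophage, B cell and dendritic markers compared next were also the gate lists. Endothelial cells with at least 3 genes of such a list had been left out as mixed. Immune cells had to hold at least 3, so the ratios differ partly by selection. ND large-vessel cells held 398 class II UMIs for each UMI of the 6 macrophage markers, whereas ND macrophages held 4.48. The 6 B cell markers were lower in HFD along with class II, from 25 UMIs or 17.2 (11.2 to 25.4) CPM to 2 UMIs or 3.30 (0.399 to 11.9) CPM. Class II UMIs for each B cell marker UMI were 287 in ND and 272 in HFD large-vessel cells, against 3.22 in ND B cells. For the 8 dendritic markers other than Zbtb46 and Naaa the numbers were 2391 in ND large-vessel cells and 25.7 in ND dendritic cells. In ND dendritic cells these 8 held 800 UMIs and all 10 dendritic markers 1044. In ND large-vessel cells the 8 held 3 UMIs and all 10 held 97, so the 2391 rests on leaving out Zbtb46 and Naaa. These exceptions were made after both genes had been seen in endothelial cells, where Zbtb46 was at 24.8 against 18.1 CPM and Naaa, a lysosomal amidase, at 40.0 (30.4 to 51.7) against 8.24 (2.68 to 19.2) CPM. The part of these markers in the result was not tested.

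The difference was larger in cells without any UMI of the 12 immune markers. In the 170 such ND cells the 8 genes were at 5005 (4874 to 5139) CPM, and in the 57 HFD cells at 579 (508 to 657) CPM, a log2 ratio of -3.11 (-3.30 to -2.93). Pecam1 was at 3598 CPM in ND and 3442 CPM in HFD in them and Cdh5 at 781 and 1023 CPM. Both are genes of the endothelial gate, so their levels are partly given by selection. Of the subset genes, Vcam1 was at 1233 against 612 CPM and Cytl1 at 5765 against 3869 CPM, while Vwf was at 1727 against 1893 CPM. Among all large-vessel cells, 5.26% in ND and 2.44% in HFD had a doublet score in the top 6% of the library. In capillary cells these shares were 0.591% in ND and 2.20% in HFD. The median mitochondrial share was 12.4% in ND and 18.6% in HFD large-vessel cells, and with a limit of 20% for both the log2 ratio was -2.49. Vcam1, 1 of the 3 genes of the gate, was itself at 1123 CPM in ND and 803 CPM in HFD cells, and with 2 other forms of the subset gate the ratio was -2.06 and -2.05. With at least 4 endothelial markers per cell, in 223 ND and 93 HFD cells, it was -1.71.

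Genes of the pathways around class II moved in these large-vessel cells as follows. Of 8 interferon gamma targets, 7 had at least 20 UMIs, and 6 of these were lower in HFD by at least 1.5-fold and none higher, with a median log2 ratio of -1.10, beside 17.6% of all genes lower and 11.2% higher. The immunity-related GTPases Iigp1 and Igtp were at 217 (194 to 242) against 89.0 (66.8 to 116) CPM and at 119 (101 to 138) against 41.2 (26.7 to 60.8) CPM. Ifngr1, a chain of the interferon gamma receptor, was at 291 (264 to 320) against 280 (240 to 326) CPM. Of 9 MHC class I genes 7 were lower and none higher, beside the same shares over all genes. B2m, the light chain of class I, was at 3375 (3281 to 3471) against 2104 (1991 to 2223) CPM.

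The factors that bind the boxes and the genes of antigen processing had few members past the fold. Of Rfx5, Rfxap, Rfxank, Nfya, Nfyb, Nfyc and Creb1, 2 were higher and 1 lower, with a median log2 ratio of 0.22, beside 11.2% of all genes higher and 17.6% lower, and nothing is read from counts this small. Nfya, a subunit of the Y box factor, was at 18.6 (12.3 to 27.1) against 36.3 (22.7 to 54.9) CPM. Rfx5, a subunit of the X box factor, was at 15.9 (10.0 to 23.8) against 13.2 (5.69 to 26.0) CPM. Of the 6 measured genes that process antigen for class II 2 were higher, beside the same shares, and Lgmn, a lysosomal endopeptidase, was at 230 (206 to 256) against 557 (499 to 620) CPM. The costimulatory list of 6 genes had 3 with at least 20 UMIs, and none of these was past the fold in either direction. Their median log2 ratio was 0.35, beside 11.2% of all genes higher and 17.6% lower. Below that count, Cd80 had no UMI in large-vessel cells of either library, which allows 2.54 CPM in ND and 6.08 CPM in HFD. Cd86 had 3 UMIs and 1 UMI.

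Capillary endothelial cells, much the larger subset, carried little class II. In 1693 ND and 819 HFD cells the summed level was 190 (180 to 201) against 414 (396 to 434) CPM, so here the HFD value was the higher, with a log2 ratio of 1.12 (1.02 to 1.23). Cd74 was at 87.5 against 170.4 CPM, H2-Aa at 30.5 against 71.9 CPM, and Ciita had 6 UMIs in each library. Of 6 members with at least 20 UMIs, 5 were higher, against 7.46% of 11020 genes higher and 20.5% lower. The median cell held 0 UMIs in both libraries.

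The capillary signal lay in few cells, and the sum of immune markers was higher along with it. The tenth of cells with the most class II held 82.1% of these UMIs in ND and 88.8% in HFD, with up to 430 and 419 in 1 cell, and 14 cells in each library held 10 or more. Of these, 3 ND and 4 HFD cells had a doublet score in the highest 6%. The sum of the 12 immune markers, all counted, had the same direction, from 65.4 (59.5 to 71.6) to 198 (185 to 211) CPM. Among them Tyrobp went from 6.55 to 36.3 CPM, while Cd79a went from 4.70 to 2.45 CPM and Cd209a from 1.85 to 0.445 CPM. In capillary cells without any UMI of them the class II level was 88.6 (81.2 to 96.5) CPM in 1476 ND and 76.4 (66.9 to 86.9) CPM in 567 HFD cells, a log2 ratio of -0.21 (-0.44 to 0.01), with at most 22 and 4 UMIs in 1 cell. After thinning, 9.12% (7.79% to 10.6%) of ND and 9.28% (7.38% to 11.5%) of HFD capillary cells held a UMI of any member, at or below the shares in T cells of the same library, so these shares were not told apart from the background. The part of the immune markers was not tested. Interferon gamma targets were lower here too, 7 of 8 by at least 1.5-fold, beside 20.5% of 11020 genes lower and 7.46% higher. Summed, they were at 1840 (1808 to 1872) CPM in ND and 672 (648 to 696) CPM in HFD. MHC class I genes were lower in capillary cells as well, 9 of 9 by at least 1.5-fold, beside the same shares over all genes. Their median log2 ratio was -0.93.

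Cxcl9, a chemokine induced by interferon gamma, was counted in 947 ND and 180 HFD capillary cells. Class II was at 130 (120 to 141) and 218 (191 to 246) CPM in these, and at 315 (293 to 339) and 482 (458 to 506) CPM in capillary cells without a Cxcl9 UMI. In the latter 1 ND cell held 430 of 721 UMIs and 1 HFD cell 419 of 1612, so no order is read from these levels. In cells that passed several endothelial subsets the level was 416 (391 to 442) CPM in 373 ND and 286 (264 to 310) CPM in 276 HFD cells. Among 20 HFD endothelial cells that passed no subset, 2 carried 99.2% of 639 UMIs. Over all endothelial cells the values were 857 (840 to 874) CPM in ND and 499.8 (484 to 516) CPM in HFD, and 7172 of 9685 ND UMIs and 544 of 3647 HFD UMIs came from large-vessel cells. Of 7 members 5 were lower by at least 1.5-fold, against 19.5% of 12226 genes lower and 6.04% higher. The summed log2 ratio of -0.78 passed that fold, but not with at least 4 markers (-0.51), as a mean over single cells (-0.33) or in cells without any UMI of a longer immune list (-0.36).

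Fibroblasts stayed near the background. They held 489 UMIs of the 8 genes in 959 ND cells and 168 in 402 HFD cells, or 128 and 90.6 (77.4 to 105) CPM, a log2 ratio of -0.50 (-0.76 to -0.24). After thinning, 7.44% (5.84% to 9.33%) and 7.46% (5.09% to 10.5%) of cells held any of them. These shares were below those in T cells of the same library, with overlapping intervals. Of 6 members with at least 20 UMIs only Cd74 passed the fold of 1.5, at 54.3 in ND and 29.6 CPM in HFD, beside 18.8% of 10750 genes lower and 6.07% higher. The summed ratio was 0.22 in the few fibroblasts without any UMI of the longer immune list. Ciita had 1 UMI in ND and 0 in HFD fibroblasts.

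**Figure D4:**
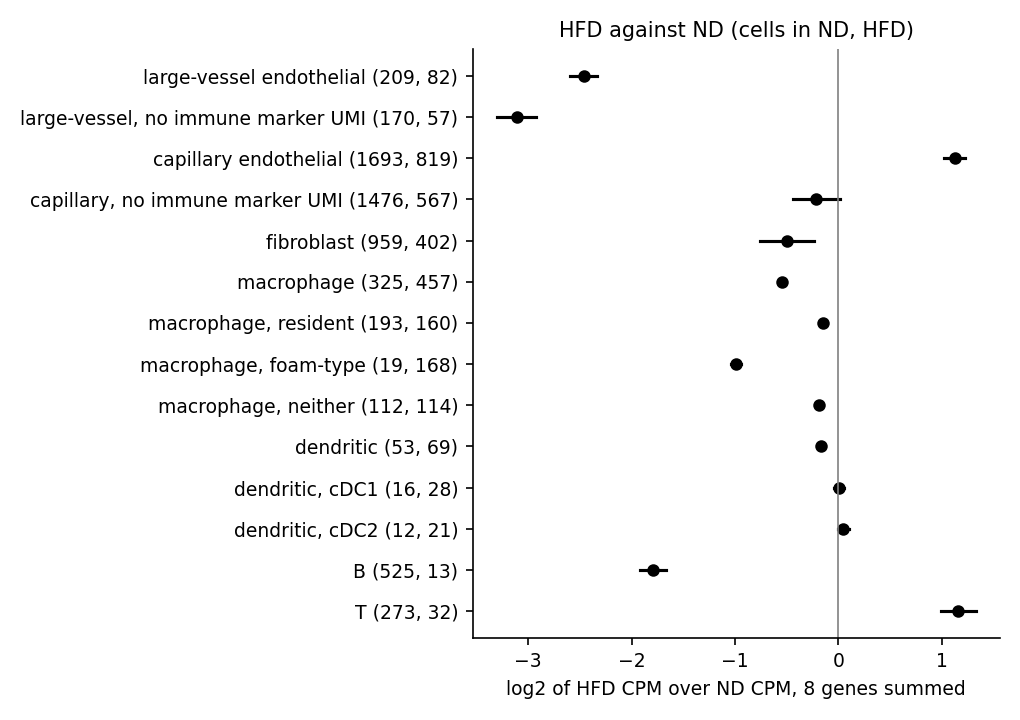
Log2 ratio of the summed HFD level over the ND level of the 8 genes in each group of cells, with exact conditional binomial 95% intervals. Large-vessel endothelial cells lie at -2.46 and at -3.11 without immune marker UMIs, capillary cells at 1.12 and -0.21, and cDC1 and cDC2 at 0.0022 and 0.05.

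Macrophages, which take up lipid in the plaque and present antigen to T cells in the wall, had somewhat lower class II levels in the HFD library. Cd74 was at 15482 (15291 to 15674) against 10405 (10294 to 10518) CPM, in 325 ND and 457 HFD cells. H2-Aa was at 6989 (6861 to 7118) against 4666 (4591 to 4741) CPM, and H2-Ab1 at 5060 (4951 to 5170) against 3806 (3739 to 3874) CPM. H2-DMa was at 438 (407 to 472) against 321 (301 to 341) CPM, and Ciita at 46.6 (36.7 to 58.3) against 39.4 (32.8 to 46.9) CPM, with overlapping intervals. Summed, the log2 ratio was -0.54 (-0.56 to -0.53), which is 1.46-fold lower, and -0.88 with at most 20% mitochondrial UMIs. Of the 8 members 1, H2-DMb2 with 15 and 17 UMIs, was lower by at least 1.5-fold, against 19.2% of 9271 genes lower and 11.4% higher.

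The macrophage subsets differed in class II and in their numbers. Macrophages were split by at least 2 markers into resident cells (Lyve1, Folr2, Cd163 and Timd4) and foam-type cells (Trem2, Gpnmb, Spp1 and Mmp12, genes of lipid-laden macrophages). Resident cells were at 26125 (25798 to 26456) CPM in 193 ND and 23572 (23251 to 23896) CPM in 160 HFD cells, a log2 ratio of -0.15 (-0.18 to -0.12). Cells that passed neither list (112 ND, 114 HFD) had the most class II, 52192 (51575 to 52815) against 45957 (45424 to 46494) CPM, a log2 ratio of -0.18 (-0.21 to -0.16). Foam-type cells were at 31242 (30390 to 32112) CPM in 19 ND and 15721 (15528 to 15916) CPM in 168 HFD cells, a log2 ratio of -0.99 (-1.03 to -0.95). With the HFD subsets given the ND weights, the ratio over all macrophages was -0.22.

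Single foam-type cells differed widely. The median was 267 UMIs of the 8 genes in ND and 83 in HFD foam-type cells, with quartiles of 171 and 352.5 in ND and 23.75 and 234.25 in HFD. In resident cells the medians were 104 and 108.5, and in cells of neither list 235 and 247.5. Of 7 members with at least 20 UMIs, 6 were lower in HFD foam-type cells by at least 1.5-fold, against 20% of 6542 genes lower and 22.8% higher. In resident cells 0 of 7 passed in either direction, against 17.3% lower and 7.74% higher, and in cells of neither list 0 of 7, against 16.5% lower and 11.7% higher.

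Proteases that prepare peptides were higher in HFD macrophages. Of 7 measured genes of class II antigen processing 5 were higher in HFD by at least 1.5-fold and none lower, with a median log2 ratio of 1.08, beside 11.4% of all genes higher and 19.2% lower. Cathepsin S (Ctss), which trims Cd74, was at 1382 (1325 to 1440) CPM in ND and 3023 (2963 to 3084) CPM in HFD. Cathepsin L (Ctsl) was at 551 (516 to 589) against 2212 (2161 to 2265) CPM, and cathepsin D (Ctsd) at 1178 (1126 to 1232) against 4426 (4353 to 4499) CPM. Within the subsets the count was 2 of 7 in resident cells, where 7.74% of all genes were higher, 4 of 7 in foam-type cells, where 22.8% were, and 0 of 7 in cells of neither list, where 11.7% were.

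Costimulatory genes and interferon gamma targets were lower in HFD macrophages. Of 5 costimulatory genes 4 were lower, beside 19.2% of all genes, among them Cd86 at 112 (96.6 to 130) against 48.1 (40.8 to 56.3) CPM and Cd40 at 66.2 (54.3 to 79.96) against 30.3 (24.6 to 37.0) CPM. Of 7 interferon gamma targets 7 were lower, beside the same share, among them the chemokine Cxcl10 at 329 (301 to 358) against 96.2 (85.8 to 108) CPM and Iigp1 at 52.1 (41.6 to 64.5) against 4.69 (2.62 to 7.73) CPM. In resident cells 7 of 7 targets were lower as well, beside 17.3% of all genes. In foam-type cells, with 19 ND cells, 4 of 5 were higher and 1 lower, beside 22.8% of all genes higher and 20% lower. Of 9 MHC class I genes 2 were lower in all macrophages and none higher, a count near the share over all genes.

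Dendritic cells as a class carried the highest levels, and these differed by less than 1.5-fold between the diets. Cd74 was at 22374 (21901 to 22854) against 18480 (18080 to 18887) CPM, in 53 ND and 69 HFD cells. H2-Aa was at 10200.5 (9882 to 10526) against 9144 (8864 to 9432) CPM, H2-Eb1 at 10771 (10443 to 11105) against 10403 (10103 to 10709) CPM and Ciita at 81.4 (55.3 to 116) against 105 (76.8 to 140) CPM. The summed log2 ratio was -0.16 (-0.19 to -0.14), and none of the 8 members passed the fold of 1.5, against 12% of 4126 genes higher and 17.8% lower. In cDC1, which hold Xcr1 or Clec9a and cross-present antigen, the levels were 43429 (42314 to 44567) CPM in 16 ND and 43494 (42567 to 44436) CPM in 28 HFD cells. In cDC2, which hold Cd209a, they were 57729 (56031 to 59466) CPM in 12 ND and 59709 (58402 to 61039) CPM in 21 HFD cells. In dendritic cells with Ccr7 or Ccl22, genes of migrating dendritic cells, they were 56098 (54028 to 58228) CPM in 8 ND and 19309 (17381 to 21392) CPM in 4 HFD cells, a log2 ratio of -1.54 (-1.70 to -1.38). For cDC1 and cDC2 the log2 ratios of 0.0022 (-0.046 to 0.051) and 0.05 (-0.0048 to 0.10) bound any change in these libraries to below 1.5-fold, as far as counting error goes.

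B cells could be described in the ND library only. In 525 ND cells, with a median of 63 UMIs of the 8 genes per cell, Cd74 was at 8894 (8768 to 9020) CPM, H2-Aa at 2955 (2883 to 3028) CPM, H2-DMa at 239 (218 to 260) CPM and Ciita at 56.5 (46.9 to 67.5) CPM. The 13 HFD B cells held 508 UMIs, or 4947 CPM. All 8 members were lower by at least 1.5-fold there, but so were 66.3% of 7053 genes, with 8.17% higher, so nothing is read from it. H2-Oa and H2-Ob, the chains of DO, a B cell inhibitor of DM, were at 147 (131 to 164) and 241 (221 to 263) CPM in ND B cells and at 4.29 (1.73 to 8.84) and 7.36 (3.803 to 12.9) CPM in ND macrophages.

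The DM beta chain genes were used differently by the cell classes. In ND B cells 786 of 981 UMIs of the pair, or 80.1% (77.5% to 82.6%), came from H2-DMb2. In cDC2 it was 22.2% (12.7% to 34.5%) in ND and 22.3% (15.5% to 30.4%) in HFD, and in cDC1 9.23% (4.86% to 15.6%) and 8.27% (4.201% to 14.3%). In macrophages it was 2.65% (1.49% to 4.33%) in ND and 1.96% (1.14% to 3.11%) in HFD, and in ND large-vessel endothelial cells 4.91% (2.14% to 9.44%). The 80.1% of B cells lay apart from all of these, whose intervals ended at or below 34.5%. In macrophages, cDC1 and cDC2 the intervals of both diets overlapped.

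Reads of the pair can be told apart in most of the 3′ end. The longest protein-coding transcripts, H2-DMb1-201 and H2-DMb2-202, agreed in 94.6% of 1219 aligned bases. Of 410 stretches of 91 bases in the last 500 bases of each, 87.6% of those of H2-DMb1 and 100% of those of H2-DMb2 were absent from the other. Reads from the shared stretches would be uncertain, and how the counting treated them is not stated in these sources. Their RefSeq promoters both hold the X box and the Y box 21 bases apart.

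**Figure D5:**
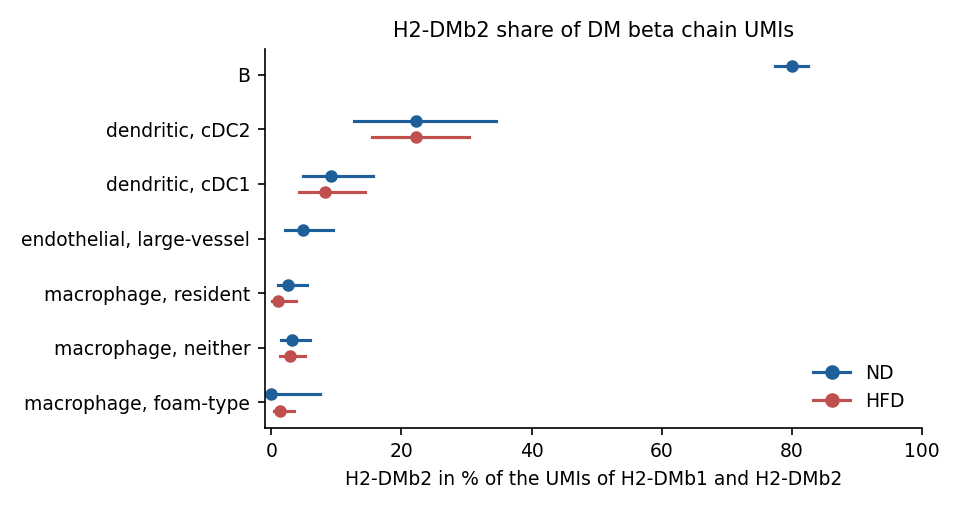
Share of H2-DMb2 in the UMIs of both DM beta chain genes, in percent, for ND (blue) and HFD (red), with exact Clopper-Pearson 95% intervals, for groups with at least 20 UMIs of the pair. ND B cells lie at 80.1%, cDC2 at 22.2% and 22.3%, and ND large-vessel endothelial cells at 4.91%. Macrophages are shown by subset, in ND and HFD: resident cells at 2.59% and 1.08%, cells of neither list at 3.18% and 2.85%, and foam-type cells at 0% and 1.35%.

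The share of each member in the sum also differed between classes. Cd74 took 52.0% (51.4% to 52.5%) of the UMIs of the 8 genes in ND B cells, 52.8% (51.7% to 54.0%) in ND large-vessel endothelial cells, 44.4% (43.96% to 44.8%) in ND macrophages and 41.4% (40.7% to 42.1%) in ND dendritic cells. H2-DMa took 2.96% (2.58% to 3.37%) in ND large-vessel cells, against 1.26% (1.17% to 1.35%) in ND macrophages. Ciita took 0.363% (0.237% to 0.531%) and 0.134% (0.105% to 0.167%) in the same groups. None of these intervals overlapped between large-vessel cells and macrophages.

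Over the whole library, macrophages carried the most class II in both diets. The kept cells held 168472 UMIs of the 8 genes in ND and 141316 in HFD. Macrophages held 33.8% of them in ND and 54.2% in HFD, where they were 6.00% and 16.7% of the cells. B cells held 21.9% in ND and 0.359% in HFD, and dendritic cells 12.2% and 15.0%. Endothelial cells held 5.75% and 2.58%, and mixed barcodes, which were left out of every class, 16.0% and 16.4%.

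The genes with levels most like the sum of the 8 over the classes included several known from leukocytes. Over 14 points, 1 for each class and library with at least 30 cells, Pearson's r of log2(CPM + 10) with the sum was 0.97 for Sh3bgrl3, 0.95 for Cd83, a surface protein of mature dendritic cells, 0.95 for Nrros, 0.94 for Gng2 and 0.94 for Irf5, a transcription factor of myeloid and B cells. Dennd4b, Plcg2 and Hcls1 each had 0.93. Of the members themselves Cd74 had 0.998, H2-DMb1 0.96, H2-DMa 0.93, Ciita 0.91 and H2-DMb2 0.71, the lowest. The points share 2 libraries and differ in depth, and the values are a description.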

How the data were processed

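There was 1 library for each diet, from 2 pooled aortas. The authors deposited raw UMI counts by gene and barcode, not normalized, made with Cell Ranger. The submitters' processing notes also name bcl2fastq, UMI-tools, Seurat 3.2.0, R 4.0.0 and the build mm10, and the matrix header gives software version 3.0.1. Which annotation was used is not stated in these sources. A file of both libraries joined was not used.

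Cells needed 200 or more genes and 200 or more UMIs, with 30% or fewer mitochondrial. Cells were gated by marker lists of 6 genes (10 for dendritic cells), with at least 3 counted. Subsets needed at least 2 markers, and dendritic subsets 1, with no other subset of the class passed. Doublets were scored with Scrublet in scanpy 1.11.5 at an expected 6%, whose automatic threshold called 0 doublets in ND and 1 in HFD, so it removed no cell and mixed barcodes were left out instead. UMIs were summed per class and library and given as CPM with exact Poisson intervals, shares with Clopper-Pearson intervals and log2 ratios with conditional binomial intervals, all at 95%. PCR duplicates are removed by the UMIs, and intervals cover counting error only, not the variation between mice. Shares were also computed after thinning to 1000 UMIs. A gene was said to lie past the fold at 1.5, where the gene had 20 or more UMIs over the libraries. The ratio step was run on simulated Poisson counts, the model that its intervals assume. These counts held no extra variation between cells, so the run checks the calculation only. Python 3.11.15, numpy 2.4.6, scipy 1.17.1, pandas 2.3.3, biopython 1.88 and matplotlib 3.10.9 were used.

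All 8 members are named, and genes of the lists around them by value where a sentence needs one. The genes most like them are the 8 with the highest correlation, among genes with at least 500 UMIs. The members, marker lists and gene lists were chosen with earlier results of these data known. The list of 12 immune markers leaves out Cst3, Lyz2 and Igkc, which was decided after Cst3 had been seen in most endothelial cells. H2-Ea-ps and Ifi30 of the fixed lists were not matched in the gene table. Alternatives changed the mitochondrial limit, the markers needed, the scaling, the weight of cells and subsets, and the treatment of doublets and of cells with immune markers.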

Additional observations from a re-analysis of the deposited data

Results flagged for a closer look

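The HFD level of the 8 genes against ND went in opposite directions in 2 subsets of endothelial cells. The log2 ratio was -2.46 in large-vessel and 1.12 in capillary endothelial cells. Without UMIs of 12 immune markers the values were -3.11 and -0.21. With 1 library per diet the difference between the subsets was not tested.

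Among immune cells the log2 ratio was -0.54 in macrophages and 1.16 in T cells. The T cell value rests on 807 UMIs in 273 ND cells and 441 UMIs in 32 HFD cells, of which 3 and 4 cells held 10 or more. This difference was not tested either.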

How the results depend on the processing

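No paired analysis was possible because there is 1 library per diet. All values here are log2 ratios of HFD over ND for the 8 genes summed, and the cause of a change was not tested. The large-vessel ratio of -2.46 was below 0 under each of 11 alternatives (-3.11 to -1.71), all chosen after seeing the data, and the endothelial ratio of -0.78 under each of 10 (-2.49 to -0.33). The macrophage ratio was below 0 under 10, that of dendritic and of B cells under 8 each, and that of fibroblasts under 9 of 10.

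With at most 20% mitochondrial UMIs the ratio was -0.88 in macrophages, -2.95 in B cells and -0.87 in fibroblasts, and with at most 50%, added after seeing the data, -1.01 in endothelial cells, -0.41 in macrophages, -0.91 in B cells and -0.11 in fibroblasts. With at least 4 markers it was -0.51 in endothelial cells, -1.71 in large-vessel cells and -0.75 in B cells, and with at least 2 markers -1.40, -2.04 and -2.01, and -0.58 in macrophages. Without mitochondrial, haemoglobin and ribosomal genes it was -0.65 in endothelial cells, -0.50 in macrophages, -0.046 in dendritic cells and -2.21 in B cells, and by the median of ratios -0.62, -0.40, -0.066 and -1.20. As the mean of single-cell CPM it was -0.33, -0.44, -0.25 and -1.43. Without the highest 6% of doublet scores it was -0.84 in endothelial cells.

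In cells with no UMI of the full list of 15 immune markers it was -0.36 in 180 ND and 94 HFD endothelial cells and 0.22 in 25 and 18 fibroblasts, and large-vessel cells could not be given a value because almost none were left. Without Cst3, Lyz2 and Igkc in that list it was -2.49 in endothelial, -3.11 in large-vessel and -0.21 in fibroblast cells. Large-vessel cells defined by at least 2 or all 3 of Vwf, Vcam1 and Cytl1, whatever other subset they passed, gave -2.06 and -2.05. With ND weights of the subsets macrophages gave -0.22 and with equal weights -0.36. After thinning to 1000 UMIs the share of cells with a UMI of any member was 94.7% in ND and 93.0% in HFD macrophages (unthinned 98.5% and 97.8%), 16.8% and 11.7% in endothelial cells (32.0% and 39.4%) and 12.1% and 18.75% in T cells (21.6% and 59.4%).

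Depth limits the rare members most: Ciita and H2-DMb2 had 1 and 0 UMIs in HFD large-vessel cells.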
